A study of Saccharomyces cerevisiae with 12 samples.

Results

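The genes described here are 9 genes of the uracil pathway of Saccharomyces cerevisiae, URA2, URA4, URA1, URA5, URA10, URA3, URA6, FUR4 and PPR1. They were chosen by name, as the probe sets annotated to these genes on a yeast expression array, and were followed over all 12 arrays of the study. Each of the 9 genes had exactly 1 probe set, so the members were 9 of 5498 yeast probe sets and 9 of 5449 genes. All 9 lay above the background level on 12 of 12 arrays, where background was the 95th percentile of the probe sets for Schizosaccharomyces pombe, a yeast absent from the cultures, on the same array.

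Pyrimidine nucleotides are built from glutamine, bicarbonate and aspartate in a chain of enzyme steps that ends at UMP. URA2 encodes the bifunctional enzyme of the first steps, carbamoyl phosphate synthetase and aspartate transcarbamylase, URA4 the dihydroorotase, URA1 the dihydroorotate dehydrogenase, URA5 and URA10 a pair of paralogous orotate phosphoribosyltransferases, and URA3 the orotidine phosphate decarboxylase that makes UMP. URA6 encodes the kinase that turns UMP into UDP, FUR4 the uracil permease of the plasma membrane, and PPR1 the zinc cluster transcription factor that senses pathway intermediates and activates several of the enzyme genes. URA3 is also among the most used selection markers of yeast genetics, because a strain that lacks it grows without added uracil only when a plasmid or insertion brings the gene back.

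The study asked how the regulators Mss11 and Flo8 and the adhesin Flo11 act on transcription in the strains Σ1278b and S288c. RNA came from cultures of 5 ml in synthetic dropout medium with 2% glucose at 30 °C, 1 culture per array. The labels place the harvest in early stationary phase, whereas the methods give the mid-exponential phase. Precision is limited by how few arrays a group has.

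The arrays fell into a second set and a first set, because the titles number a Σ1278b wild type as replicate 1 in both and the culture codes form a pair of separate runs. The second set held 6 arrays, 1 each of Σ1278b with FLO8 overexpression, Σ1278b with MSS11 overexpression, the Σ1278b mss11 deletion, the Σ1278b wild type, S288c with MSS11 overexpression and the S288c wild type. The first set held 3 arrays of Σ1278b with FLO11 overexpression and 3 of its wild type. Σ1278b cells of both sets carried ura3-52, a Ty insertion in the chromosomal URA3, and hisG disruptions of TRP1, LEU2 and HIS3. The labels give them as MATα, while the strain list of the study gives the parent with these alleles as MATa. The S288c arrays were of BY4742, which is MATα with ura3Δ0, a full deletion of URA3, and with leu2Δ0, lys2Δ0 and his3Δ1. FLO11 was overexpressed from the PGK1 promoter, FLO8 and MSS11 from multicopy vectors, MSS11 was deleted by insertion of LEU2, and every wild type carried an empty vector.

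The study describes a URA3-marked multicopy vector for MSS11 overexpression in both strains, and the same vector without insert for the mss11 deletion and the wild types that served as their controls. It lists the FLO11 construct on a LEU2-marked vector. The vectors of the FLO8 array and of the first-set wild type are not given in the sources used here. No label names a vector, and the supplements of the dropout medium are not given per array. The plasmid marker, the medium and the array set therefore cannot be told apart in any difference between the sets. The manipulated genes followed their labels on every array, with FLO11 at 14.81 to 14.88 on the log2 scale on the FLO11 arrays and 11.95 to 12.27 in their wild type. MSS11 was at 12.29 in the Σ1278b overexpression and 6.87 in the deletion, against 8.22 in the wild type of the second set, and at 11.45 in the S288c overexpression against 8.49 in the S288c wild type. Among the Σ1278b arrays, replicates correlated over all yeast probe sets at 0.997 to 0.998. Σ1278b arrays of different groups within a set correlated at 0.987 to 0.996 and those of different sets at 0.980 to 0.988. The S288c arrays were not part of these pairs.

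URA3 separated the sets more widely than any other member. Its signal, in log2 units of the deposited intensity as all levels below, was 14.82 with FLO8 overexpression, 14.32 with MSS11 overexpression, 14.64 in the mss11 deletion and 14.73 in the wild type of the second Σ1278b arrays. In the first set it was 8.68, 8.40 and 8.47 with FLO11 overexpression and 8.57, 8.71 and 8.64 in the wild type. The means of the sets were 6.05 apart, a 66.2-fold difference, which was the largest of all 5498 probe sets. This contrast was part of the rule that set the arrays against each other, so it is a description and was not tested. Each culture was measured as a whole, so fewer cells with the transcript and less of it per cell cannot be told apart.

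Both S288c arrays also stood at the high level, with URA3 at 14.67 under MSS11 overexpression and 15.00 in the wild type. The highest probe set of any array lay between 15.22 and 15.31, so URA3 in the second set was near the top of the measured scale. The low level of the first set, 8.40 to 8.71, was still well above the background levels of 4.81 to 4.90 on those arrays. Beside URA3, the leucine marker LEU2 was at 12.93, 13.02, 14.30 and 13.04 on the FLO8, MSS11, mss11 deletion and wild type arrays of the second set, against 14.74 to 15.00 in the first set, and at 7.40 with MSS11 overexpression and 7.06 in the wild type of S288c. The labels give LEU2 as disrupted in all Σ1278b cells, and the source of its signal on the second-set Σ1278b arrays was not tested. LEU2 was lower in the second set by limma (difference -1.55, SE 0.24, adjusted p = 7.36e-04), and its highest value there was that of the deletion, which carries LEU2 in place of MSS11.

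The first question was which of the other 8 members differed between the sets of Σ1278b arrays, 4 in the second and 6 in the first. URA2, URA6 and FUR4 were higher in the second set, URA1 and URA4 were lower, and URA5, URA10 and PPR1 did not pass the test (limma, Benjamini-Hochberg adjustment over all 5498 probe sets). FUR4 moved furthest, by 1.73-fold, followed by URA2 at 1.41-fold and URA1 at 1.38-fold in the opposite direction. The call was common on these arrays, with 37% of all probe sets called, 16.3% as higher and 20.7% as lower, so 5 of 8 is to be read against that share. The median difference of the 8 genes was 0.15, against -0.01 over all genes.

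**Figure D1:**
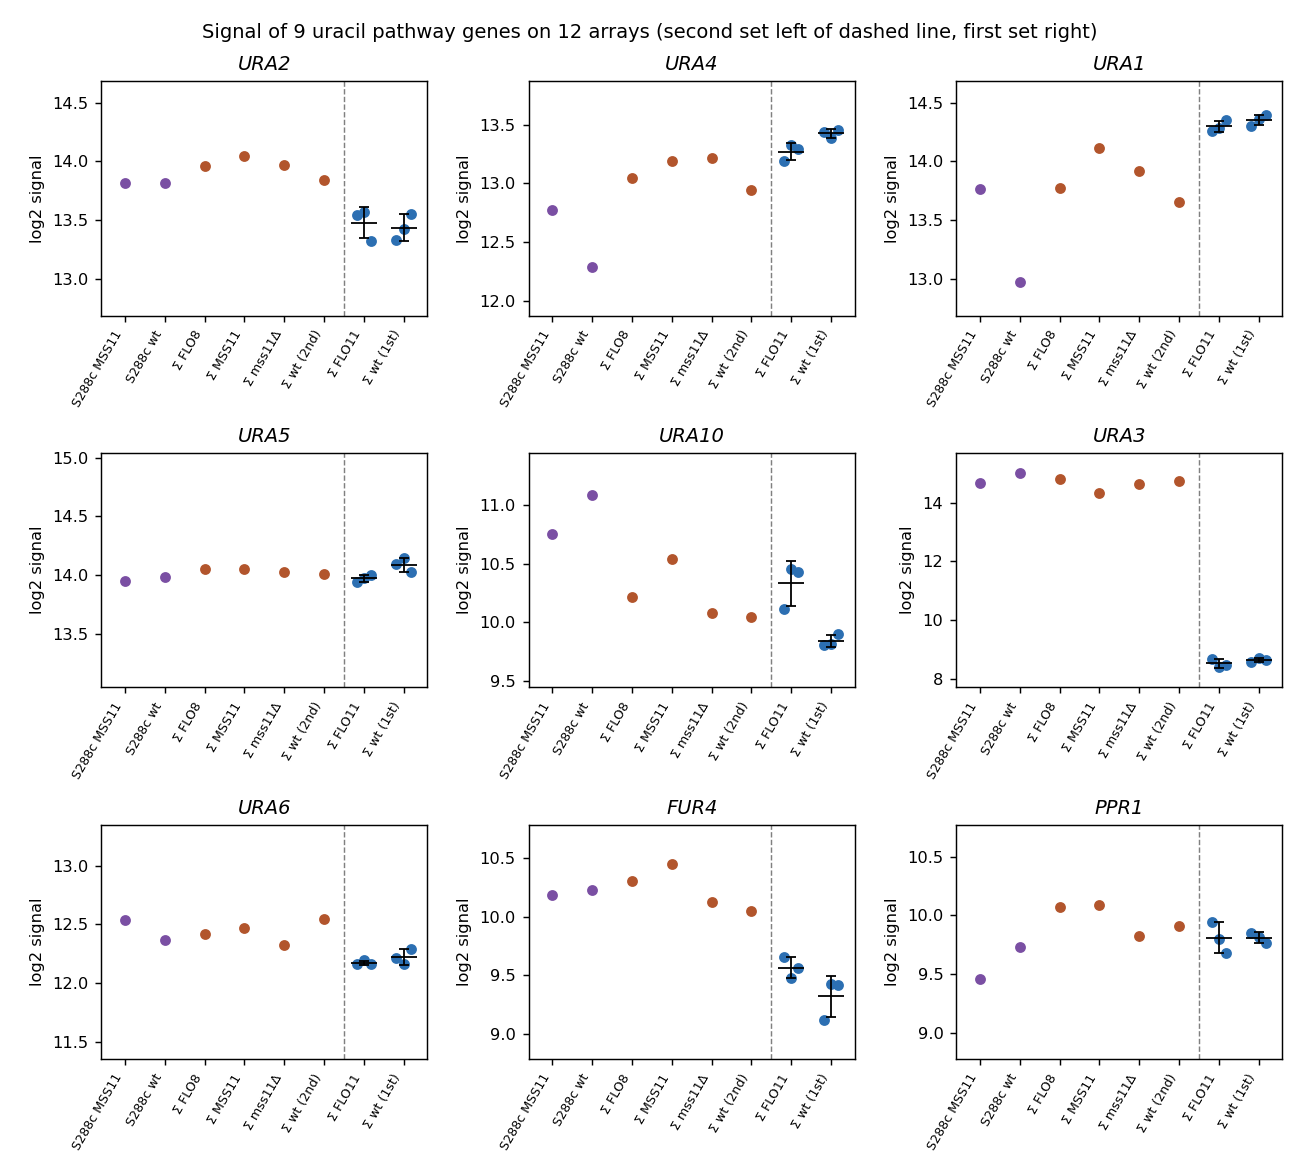
Log2 signal of the 9 members (y axis) on each array by group (x axis), with the second set left of the dashed line and the first set right of it. Each point is 1 array, purple for S288c, brown for Σ1278b of the second set and blue for the first set, with mean and SD bars for the groups of 3. Every panel spans 2 log2 units except that of URA3, which spans 8. URA2, FUR4, URA6 and URA1 show no overlap between the sets, as 16.4% of all probe sets do. URA3 shows none either, but its contrast was part of the rule that set the arrays against each other.

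At the head of the pathway, URA2 was at 13.96 with FLO8 overexpression, 14.05 with MSS11 overexpression, 13.97 in the mss11 deletion and 13.84 in the wild type of the second set. In the first set it was 13.54, 13.57 and 13.32 with FLO11 overexpression and 13.33, 13.42 and 13.55 in the wild type. All 4 arrays of the second set lay above all 6 of the first, and the difference was 0.50 (SE 0.06, limma adjusted p = 2.98e-04). Ranges of the sets were apart for 27.9% of all probe sets, 12.3% with the second set above. The 2 S288c arrays, at 13.82 and 13.81, also lay above the whole first set.

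URA4 and URA1, the next enzymes in the chain, ran the other way. URA1 had 13.77, 14.11, 13.92 and 13.65 with FLO8, MSS11, the mss11 deletion and the wild type in the second set, against 14.26, 14.28 and 14.35 with FLO11 overexpression and 14.30, 14.36 and 14.40 in the wild type of the first set. Every array of the second set was below every array of the first, which held for 15.6% of all probe sets, and the difference was -0.46 (SE 0.08, limma adjusted p = 0.00123). URA1 also varied more within the second set, with an SD of 0.20 over its 4 arrays against 0.05 over the 6 arrays of the first.

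URA4 was at 13.05, 13.19, 13.21 and 12.95 on the same 4 arrays, against 13.19, 13.33 and 13.29 with FLO11 overexpression and 13.44, 13.39 and 13.46 in the wild type of the first set. The FLO11 array at 13.19 fell among the values of the second set, so the sets overlapped. The difference was -0.25 (SE 0.07, limma adjusted p = 0.0150), and with the S288c arrays and strain as a covariate the call was lost at an adjusted p of 0.0577 by limma.

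The paralogs URA5 and URA10 did not differ between the sets beyond the spread of their arrays. URA5, which supplies most of the orotate phosphoribosyltransferase activity, was at 14.05, 14.05, 14.02 and 14.01 in the second set, against 13.94 to 14.14 with a median of 14.01 in the first. Its difference was 0.00, with a 95% interval of -0.09 to 0.10 (limma adjusted p = 0.953). Over all 12 arrays URA5 spanned 0.20 log2 units, and 4.55% of all probe sets had a smaller range, with a median range of 0.58.

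URA10, the minor isozyme, was at 10.21, 10.54, 10.08 and 10.05 in the second set, against 9.80 to 10.46 in the first. Its difference was 0.13, and the wide 95% interval of -0.21 to 0.48 (limma adjusted p = 0.532) covered changes of either sign. The spread came in part from the first set, where the FLO11 arrays stood above the wild type arrays.

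Beyond UMP, URA6 was at 12.42, 12.47, 12.32 and 12.54 with FLO8, MSS11, the mss11 deletion and the wild type of the second set, against 12.16 to 12.29 in the first. The sets did not overlap, although the deletion array lay only just above the highest first-set array, and the difference was 0.24 (SE 0.05, limma adjusted p = 0.00288). FUR4 was at 10.30, 10.45, 10.13 and 10.05 in the second set, against 9.65, 9.48 and 9.56 with FLO11 overexpression and 9.12, 9.42 and 9.42 in the wild type of the first set. The sets were again apart, with a difference of 0.79 (SE 0.11, limma adjusted p = 3.69e-04), the largest among the members after URA3. The second set lay wholly above the first for 12.3% of all probe sets.

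PPR1, the activator, was at 10.07, 10.09, 9.82 and 9.91 in the second set, against 9.68 to 9.95 in the first. The sets overlapped and the difference of 0.16 had a 95% interval of 0.02 to 0.31 and missed the threshold after adjustment (limma adjusted p = 0.0761). The call appeared without the mss11 deletion array (0.21, adjusted p = 0.0247 by limma), without FLO11 replicate 1 (0.19, adjusted p = 0.0453) and with each array centred on its median (0.19, adjusted p = 0.0342). Of the genes that Ppr1 is known to activate, URA1 and URA4 were lower in the second set, URA10 did not pass and URA3 was the gene by which the sets were set apart.

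With the S288c arrays included, 6 arrays of the second set against 6 of the first, the same 5 members passed. Of all probe sets, 25.3% were called in that fit, 9.19% as higher and 16.1% as lower. URA1 differed by -0.63 (limma adjusted p = 0.0100), URA4 by -0.44 (adjusted p = 0.0360), URA2 by 0.45 (adjusted p = 4.30e-04), URA6 by 0.25 (adjusted p = 0.00318) and FUR4 by 0.78 (adjusted p = 1.18e-04). URA1, URA2, URA6 and FUR4 had ranges apart over all 12 arrays, which 16.4% of the probe sets had.

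The wild types alone share their stated genotype, and they differ in the set. Whether their vectors or medium supplements also differed is unknown. The single wild type array of the second set was compared with 3 of the first in a limma fit of all 8 groups, in which the lone array is assumed to vary like the replicated groups. In this fit 18% of the probe sets were called, 6.84% as higher and 11.2% as lower. FUR4 (0.73, adjusted p = 0.0114) and URA6 (0.32, adjusted p = 0.0208) were higher in the second wild type, while URA1 (-0.70, SE 0.07, adjusted p = 0.00113) and URA4 (-0.48, adjusted p = 0.00644) were lower. URA2 had a difference of 0.40 (adjusted p = 0.0583) and did not pass, nor did URA5 (-0.08), URA10 (0.21) and PPR1 (0.10). The URA6 call was lost without wild type replicate 2 (0.29, adjusted p = 0.0585) and with the 4 wild type arrays fitted alone (0.32, adjusted p = 0.0510).

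**Figure D2:**
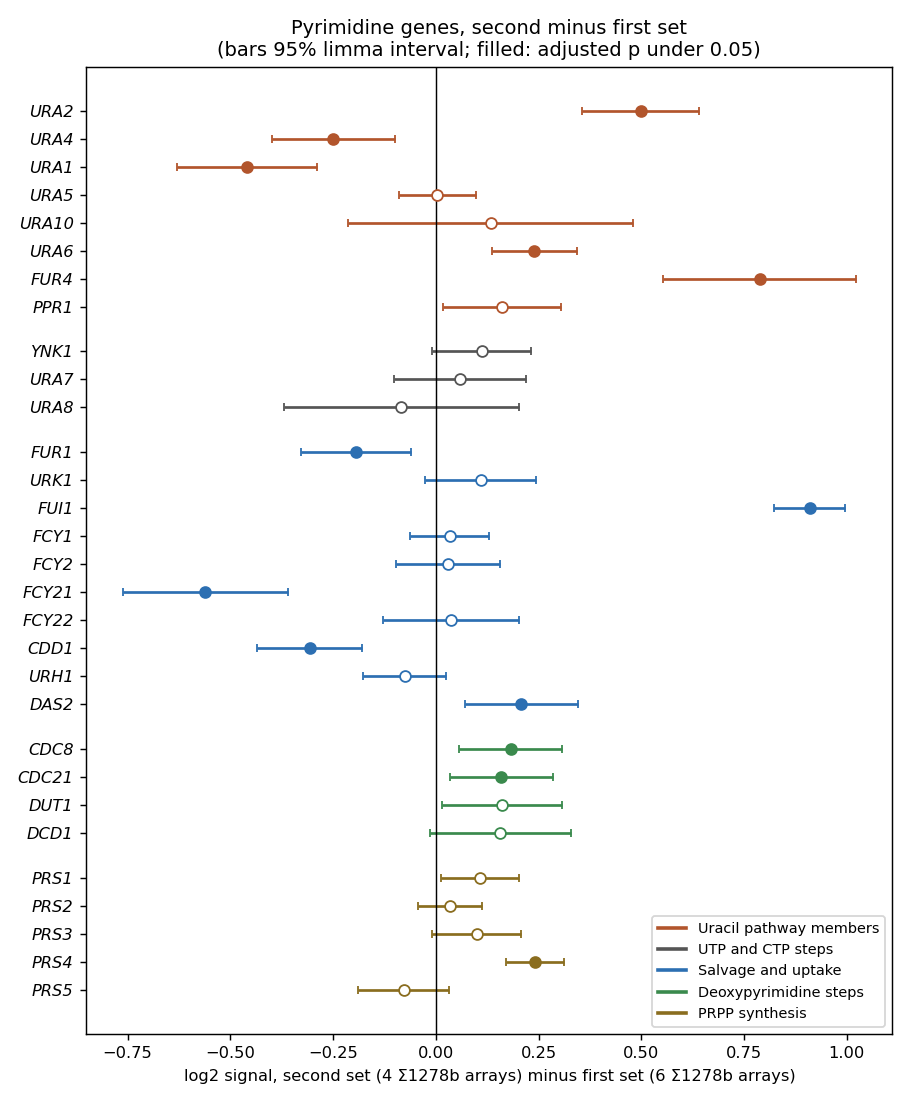
Difference in log2 signal between the second and the first set of Σ1278b arrays (x axis) for the members other than URA3 and for related pyrimidine genes (y axis). Bars are 95% limma intervals and filled points passed an adjusted p of 0.05, with FUR4 at 0.79 and FUI1 at 0.91 furthest to the right and FCY21 at -0.56 and URA1 at -0.46 furthest to the left.

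The genes that take up and recycle pyrimidines surround the members. Of 10 salvage and uptake genes, 2 were higher and 3 lower in the second set, with a median of 0.03. Over all probe sets, 16.3% were called as higher and 20.7% as lower. The uridine permease gene FUI1 was at 12.64, 12.76, 12.73 and 12.61 on the FLO8, MSS11, mss11 deletion and wild type arrays, against 11.74 to 11.82 in the first set, a difference of 0.91 (SE 0.04, limma adjusted p = 3.12e-07). FUR4 and FUI1 were thus both higher with no overlap, as 12.3% of all probe sets were. Of the listed genes of the cytosine permease group, FCY21 was lower with no overlap (-0.56), as 15.6% of all probe sets were. FCY2 (0.03) and FCY22 (0.04) did not pass. On the S288c arrays of the same set FUI1 was between the levels of the Σ1278b sets, at 12.18 with MSS11 overexpression and 11.96 in the wild type, whereas FUR4 had 10.19 and 10.23, within its range on the second Σ1278b arrays.

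DAS2, which encodes a putative uridine kinase, was the other salvage gene above the first set (0.21, limma adjusted p = 0.0241). FCY21, a relative of the cytosine permease gene (-0.56, adjusted p = 0.00103), CDD1, the cytidine deaminase gene (-0.31, adjusted p = 0.00229), and FUR1, the uracil phosphoribosyltransferase gene (-0.19, adjusted p = 0.0287), were lower by limma. The other 5 did not pass, so the salvage genes had no common direction. With the S288c arrays included, FCY21 (-0.36) and CDD1 (-0.18) no longer passed, while FUI1, DAS2 and FUR1 did.

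The counts in the next lists are to be read against the 37% of all probe sets called, 16.3% as higher and 20.7% as lower. None of 3 genes for UTP and CTP formation passed, with YNK1, the nucleoside diphosphate kinase gene, at 0.11 and the CTP synthase genes URA7 and URA8 at 0.06 and -0.08. Of 4 deoxypyrimidine genes, CDC8, the thymidylate kinase gene (0.18, limma adjusted p = 0.0293), and CDC21, the thymidylate synthase gene (0.16, adjusted p = 0.0489), were higher, and DUT1 and DCD1 had 0.16 each without passing. Neither CDC8 (0.11) nor CDC21 (-0.03) passed with the S288c arrays included. The nucleotidase gene SDT1 had -0.10 and did not pass. PHM8, which encodes a nucleotidase also known as a phosphate starvation gene, was at 6.69, 6.96, 7.90 and 7.06 with FLO8, MSS11, the deletion and the wild type, against 9.42 to 10.07 in the first set (-2.50, SE 0.21, limma adjusted p = 2.23e-05). The S288c arrays of the second set had PHM8 at 9.82 with MSS11 overexpression and 9.11 in the wild type.

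**Figure D3:**
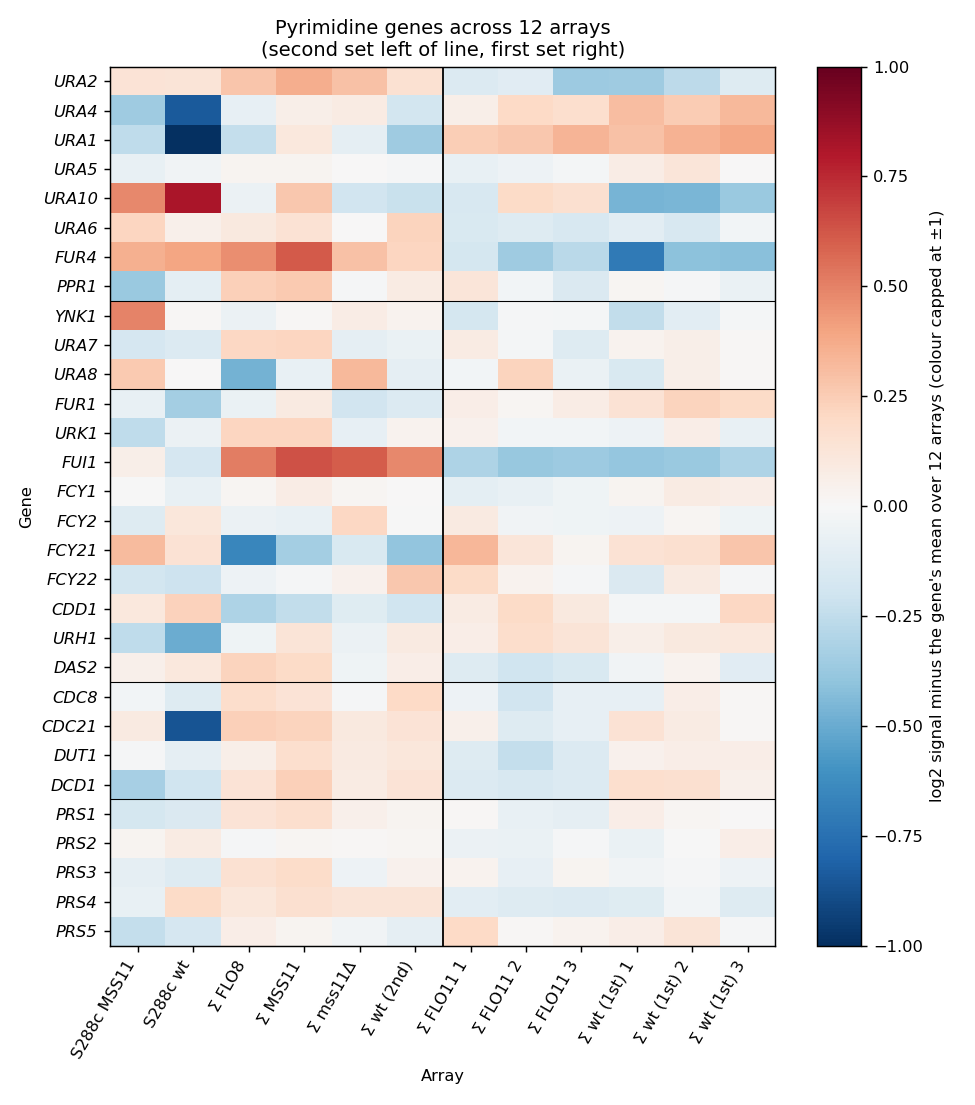
Log2 signal of members and related pyrimidine genes (rows) on each array (columns), as the difference from the gene's mean over 12 arrays, with the second set left of the line and the first set right of it. Colour runs from blue (lower) to red (higher) and is capped at 1 log2 unit. FUR4 and URA2 are red across the second set, FUI1 is reddest on its Σ1278b arrays, and URA1 and URA4 are bluest on the S288c wild type array.

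Carbamoyl phosphate is also used for arginine, and 5 of 7 measured arginine pathway genes differed between the Σ1278b sets, where 37% of all probe sets did. The ornithine carbamoyltransferase gene ARG3 (0.33, limma adjusted p = 0.00128) and ARG8 (0.38, adjusted p = 0.00466) were higher in the second set. ARG2 (-0.45, adjusted p = 0.00415), ARG7 (-0.42, adjusted p = 0.00621) and ARG4 (-0.19, adjusted p = 0.00341) were lower. The list median was -0.01, the same as over all genes. With the S288c arrays included, ARG3 (0.43) and ARG8 (0.40) still passed by limma. ARG2 (-0.20), ARG7 (-0.02) and ARG4 (-0.12) did not pass in that fit, where 25.3% of all probe sets were called.

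Phosphoribosyl pyrophosphate, the sugar phosphate that URA5 and URA10 join to orotate, is made by the PRS enzymes. Of 5 PRS genes only PRS4 passed (0.24, limma adjusted p = 3.41e-04), where 37% of all probe sets did. Over all probe sets, 16.3% were called as higher and 20.7% as lower. Purine synthesis, which draws on the same sugar phosphate, had 3 genes higher and 2 lower of 15 measured, with a median of -0.01. The largest of these were IMD4 at 0.24 (adjusted p = 6.44e-04) and IMD2 at -0.44 (adjusted p = 0.0490) by limma, both for inosine monophosphate dehydrogenase, and the IMD2 probe set has probes shared between related genes.

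Genes next to the members in the RefSeq gene order were used to see whether a difference extended along the chromosome. GEA2, beside URA3, was lower in the second set by 0.18 (limma adjusted p = 0.0330), and TIM9, on its other side, was at 0.05 (adjusted p = 0.511). A further 4 neighbours were lower: AIM23 beside URA2 (-0.18), YLR419W beside URA4 (-0.16), PAN3 beside URA6 (-0.20) and POA1 beside FUR4 (-0.18). None of the neighbours of a member that was higher in the second set was itself higher. Over all probe sets, 20.7% were called as lower and 16.3% as higher, so neighbours called as lower are common anywhere on these arrays. In S288c, TIM9 was at 10.22 with MSS11 overexpression and 10.43 in the wild type, against 12.36 to 12.59 on the 10 Σ1278b arrays.

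The genes whose levels followed URA3 most closely over the 10 Σ1278b arrays were FUI1 (r = 0.991), the glutamine permease gene GNP1 (r = 0.991), the amino acid permease gene BAP3 (r = 0.990), YAR035C-A (r = 0.989) and VHR2 (r = 0.985). These coefficients describe the division into sets, since URA3 takes only a high and a low level, and 220 genes had r above 0.9. BAP3 was 3.76 log2 units higher in the second set and VHR2 was 1.90 higher. For URA1 the closest were MDH2, the cytosolic malate dehydrogenase gene (r = 0.985), RIB4, a riboflavin synthesis gene (r = 0.964), RTS2 (r = 0.961), YGL185C (r = 0.959) and PTP2 (r = 0.943), with 48 genes above 0.9. Each of these named genes was lower in the second set, as URA1 was, so their coefficients also describe the division in part.

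Within a set, the 8 other members were set against URA3 over its 6 arrays, which gave 16 relations over both sets. The strongest was that of URA1 in the second set, with Pearson's r of -0.867 (exact permutation p = 0.05, adjusted p = 0.511) and Spearman's rho of -0.829 (exact permutation p = 0.0583, adjusted p = 0.726). Without the Σ1278b MSS11 overexpression and the S288c wild type, the arrays farthest from the median in URA3, r was -0.44, so the coefficient rested on those arrays. No relation passed after adjustment over the 16.

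FLO11 overexpression was compared with the wild type within the first set, where the marker level is shared and URA3 had 8.52 ± 0.14 with FLO11 overexpression and 8.64 ± 0.07 in the wild type (SD, n = 3 each), a difference of -0.12 (limma adjusted p = 0.403). Only URA10 of the 9 members passed, while 6.35% of all probe sets did, 3.8% as higher. It had 10.11, 10.46 and 10.43 with FLO11 overexpression, against 9.80, 9.82 and 9.90 in the wild type. All 3 overexpression arrays were above all 3 wild type arrays, as for 12.4% of probe sets, and the difference was 0.49, or 1.41-fold (SE 0.09, limma adjusted p = 0.0285).

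This call rested on the full group of arrays. It was lost by limma without wild type replicate 1 (adjusted p = 0.0902), replicate 2 (adjusted p = 0.115) or replicate 3 (adjusted p = 0.0559) and without FLO11 replicate 2 (adjusted p = 0.0796) or replicate 3 (adjusted p = 0.0928), with a difference of 0.43 to 0.52 in each of these fits. It was also lost when all 10928 probe sets of the array were tested (adjusted p = 0.0858).

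The paralog URA5 averaged 13.97 ± 0.03 with FLO11 overexpression and 14.09 ± 0.06 in the wild type (SD, n = 3 each), and its difference of -0.11 (SE 0.05) did not pass (limma adjusted p = 0.210). FUR4 had 0.24 (adjusted p = 0.172) and URA4 -0.16 (adjusted p = 0.127), and neither passed. URA1, URA2, URA6 and PPR1 were between -0.05 and 0.04. The median of the 8 members other than URA3 was -0.02, against -0.01 over all genes.

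Among the related pyrimidine genes, FLO11 overexpression left none of the 10 salvage and uptake genes past the threshold, which 6.35% of all probe sets passed. The dUTPase gene DUT1 (-0.23, limma adjusted p = 0.0364) and the deoxycytidylate deaminase gene DCD1 (-0.27, adjusted p = 0.0219) were lower, and the nucleotidase gene SDT1 was higher (0.29, adjusted p = 0.0230). LEU2 was lower by 0.24 log2 units, at 14.77, 14.76 and 14.74 with FLO11 overexpression against 15.00, 14.98 and 14.98 in the wild type.

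Within the second set each condition had 1 array, so differences have no replicate check, and a difference was called at 2-fold with the brighter array above background. The Σ1278b conditions share 1 wild type array. None of the 9 members was called at 2-fold after FLO8 overexpression, after MSS11 overexpression in either strain or in the mss11 deletion. Of all probe sets, 0.818% were called with FLO8 overexpression, 1.22% with MSS11 overexpression in Σ1278b, 0.637% in the mss11 deletion and 1.67% with MSS11 overexpression in S288c. At an alternative threshold of 1.5-fold, URA1 passed with MSS11 overexpression in S288c (13.76 against 12.97), as 337 of all probe sets did.

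**Figure D4:**
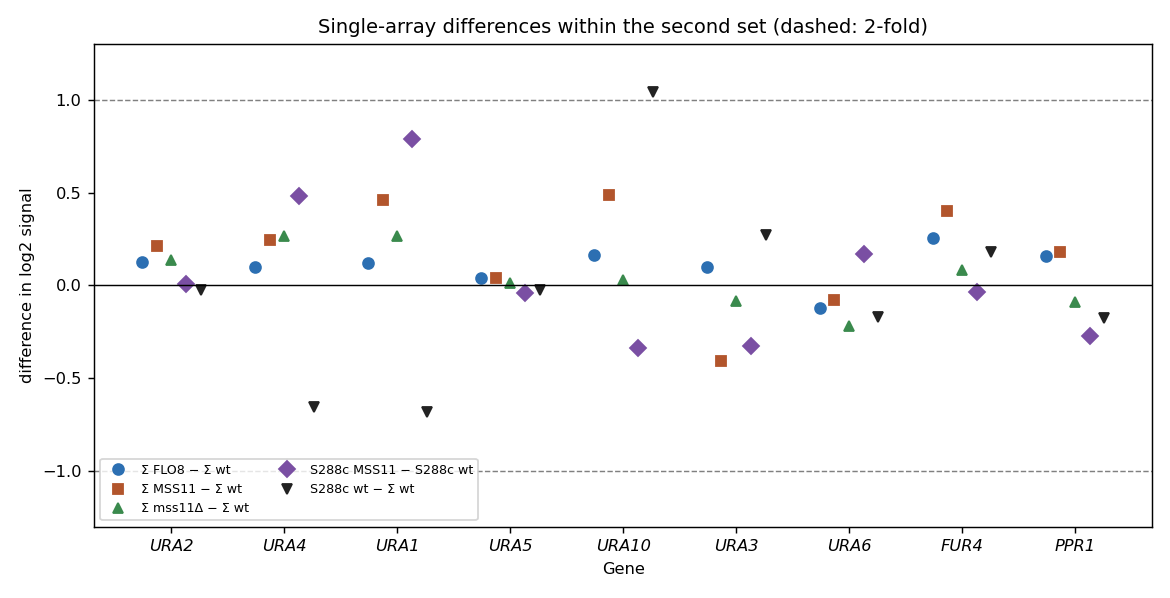
Difference in log2 signal (y axis) of each member (x axis) between single arrays of the second set, by comparison (symbol), with dashed lines at 2-fold. URA10 in the S288c wild type, at 1.04, is the only point beyond a dashed line, and URA1 with MSS11 overexpression in S288c, at 0.79, is the next furthest.

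With FLO8 overexpression the members lay between -0.12 for URA6 and 0.26 for FUR4. In the mss11 deletion they lay between -0.22 for URA6 and 0.27 for URA1 and URA4. With MSS11 overexpression in Σ1278b, URA10 was at 0.49, URA1 at 0.46, FUR4 at 0.40 and URA3 at -0.41. That array had the lowest URA3 and the highest URA1 of the 6 arrays of the second set.

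MSS11 overexpression in S288c gave URA1 at 13.76 against 12.97 in the wild type and URA4 at 12.77 against 12.29, differences of 0.79 and 0.48. URA3 was 0.33 lower and URA10 0.34 lower. As the S288c effect minus the Σ1278b effect, URA1 differed by 0.33 and URA10 by -0.83, each from 4 single arrays.

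The S288c wild type was set against the Σ1278b wild type of the second set, where 8.6% of the probe sets were called, 5.33% as higher. URA10 was at 11.09 in S288c and 10.05 in Σ1278b, a difference of 1.04 that was called. URA1 was at 12.97 and 13.65 (difference -0.68) and URA4 at 12.29 and 12.95 (difference -0.66) in S288c and Σ1278b, both below 2-fold and not called. URA2, URA5 and URA6 differed by -0.03, -0.02 and -0.17, FUR4 by 0.18, PPR1 by -0.18 and URA3 by 0.27. The S288c wild type thus held the lowest URA1 and URA4 and the highest URA10 of the 12 arrays.

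The nucleotidase genes SDT1 and PHM8 were higher in the S288c wild type by 1.77 and 2.05 and were called, as were ARG2 and ARG7, the second by 1.72. No salvage gene was called, where 8.6% of all probe sets were, with FUI1 at -0.65. Of the purine genes, ADE1 and MTD1 were called as lower, MTD1 with a difference of -1.26. The neighbouring gene TIM9 differed by -2.15, while GEA2 on the other side of URA3 differed by -0.05.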

How the data were processed

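RNA of 12 cultures was measured on Affymetrix Yeast Genome 2.0 arrays. The values the authors deposited were linear signal intensity from RMA (background correction, quantile normalization, 1 value per probe set, replicates not pooled), and the version of RMA is not given in the sources used. Since the methods speak of log2 values, deposited intensity was converted to log2 here, without a pseudocount. Only the 5498 probe sets annotated to 1 S. cerevisiae gene were tested, and 12 symbols were updated through the RefSeq gene table. Probe sets taken as Schizosaccharomyces pombe (1747) gave each array's background level.

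Groups came from the sample labels, which call the arrays biological replicates. Two-sided tests were made with lmFit and eBayes of limma 3.58.1 under R 4.3.3. P-values were adjusted over the 5498 probe sets by Benjamini-Hochberg, with 0.05 as the threshold. The fits were also run on simulated data of independent arrays with no genotype groups. That run does not cover the mixed genotypes of the set comparison. Single arrays were compared at a log2 difference of 1 with no test. A limma fit of 8 groups served to compare the Σ1278b wild types, 1 array against 3, and as an alternative for single arrays and strain differences, where it borrows the spread of the replicated first-set groups. Where the comparison of sets mixes genotypes, their spread enters the residual.

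The members and lists were chosen with earlier results of these data known. Named were all members, genes of the related lists past the threshold or among the 4 largest differences of a list, neighbours past the threshold, the 5 genes most like URA3 and URA1, and the marker and manipulated genes. TIM9 and GEA2 were named as neighbours of URA3. ADE5,7 and ARG5,6 are not reported here. Sequences and motifs were not analysed here.

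Alternatives were other sets of arrays, strain as a covariate, group as a random block, replicate number as a block, renormalization, centring, all probe sets, trend and robust eBayes, dim probe sets left out, other thresholds and each array left out in turn.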

Additional observations from a re-analysis of the deposited data

Results flagged for a closer look

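In groups of 4 to 10 arrays, an extreme array was set apart by Dixon's ratio of its gap to the group's range. None of 18 tests over the members passed, and 7 of 126 over all listed genes did, where chance gives about 1 in 20. In the first set, CPA1 (13.54) and IMD2 (11.13) on the wild type replicate 1 array and PRS4 (12.53) on the wild type replicate 2 array stood apart from the other 5 arrays. In the second Σ1278b set, PRS2 (11.62) and the manipulated gene FLO8 (14.65) stood apart on the FLO8 overexpression array, as did LEU2 (14.30) and TIM9 (12.36) on the mss11 deletion array. The deletion strain carries LEU2 as its marker.

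The MSS11 overexpression effects in S288c and Σ1278b were also compared by the interaction term of the limma fit. The listed genes that it flagged, the manipulated FLO11 and MSS11 among them, are given below as effect sizes only. Each of the 4 arms was 1 array, so the spread of these conditions was not measured, and the fit assumes that they vary like the replicated groups of the first set. As the S288c effect minus the Σ1278b effect in log2 units, these were the thymidylate synthase gene CDC21 (0.86), the nucleotidase gene SDT1 (-1.19), ARG2 (-1.28), ARG7 (-1.01), MTD1 (0.61), LYS2 (1.44), FLO11 (2.43) and MSS11 itself (-1.10). LYS2 was at 4.21 with MSS11 overexpression and 3.70 in the wild type of S288c, where the gene is deleted. Both values were below the background levels of 4.82 and 4.77 on those arrays, so its difference of 1.44 includes an S288c effect that was not measured above background.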

How the results depend on the processing

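Under a 2-fold minimum the count of probe sets different between the Σ1278b sets fell to 54 of 2036, with no member but URA3, and it was 990 for the wild types alone. Group as a random block gave 1568, and leaving out 1 array gave 1625 to 2026. Centring each array on its median gave 1209 higher and 955 lower, against 896 higher and 1140 lower without it. URA5, at 0.00, changed sign with all 12 arrays (-0.018), in the wild types (-0.076) and without single arrays (-0.013 to 0.026). All 9 members were above background on every array, so dim signal limits none of these values. For the wild types alone, the count was 573 to 796 without 1 first-set array.

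After FLO11 overexpression 349 probe sets passed, 208 with replicate number as a block (replicate block), 112 when all probe sets of the array were tested and 96 to 318 without 1 array. The pairs of equal number correlated at 0.03, -0.12 and -0.27, so the numbers did not pair the arrays. URA10 kept its call under the block. Differences near 0 changed sign without single arrays, for URA2 (-0.011 to 0.119) and PPR1 (-0.069 to 0.064). The fit of 8 groups gave the same 349, since single arrays add no spread.

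At 1.5-fold the counts of single arrays were 119 against 45 for FLO8 overexpression, 173 against 67 for MSS11 overexpression in Σ1278b, 122 against 35 for the mss11 deletion, 337 against 92 for MSS11 overexpression in S288c and 1157 against 473 for S288c against Σ1278b. Among the members, this threshold added URA1 with MSS11 overexpression in S288c, and URA1 and URA4 for S288c against Σ1278b. The limma fit of 8 groups, which measured no spread in these single arrays, gave 102 for MSS11 overexpression in Σ1278b, 680 in S288c and 2368 for the strains.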
